A study of Mus musculus with 7 samples.

Results

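Lung epithelial cells of mice 14 days after birth (P14) were compared with those of late fetal mice at embryonic day 18.5 (E18.5), gene by gene and by pathway. The comparison used 3 of the 7 libraries of the series, chosen by their stage labels: 1 library at P14 and 2 at E18.5. Libraries at P56 (2), E15.5 (1) and E13.5 (1) entered the same statistical fit and are cited where they place a change in time. All mice were C57BL/6 with no treatment or allele named in the labels, and all libraries came from dissociated lung sorted as propidium iodide-negative cells with the epithelial surface protein Epcam and without CD31, CD45, Ter119 or CD146. The labels do not say how many mice gave a library, or whether the E18.5 libraries came from different mice, so p-values measure only the spread between these samples.

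At birth the lung changes from a fluid-filled organ to one that exchanges gas. The alveolar surface is built from flat type 1 cells, which form the air barrier, and cuboidal type 2 cells, which store surfactant in lamellar bodies and secrete it so that alveoli do not collapse. In the mouse, alveoli are formed by septation during the first weeks after birth, so P14 falls within that period and E18.5 just before it. Because the sort took the whole epithelium, fewer cells of a type and less RNA per cell cannot be told apart in any result below.

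RNA was read by 3' SAGE sequencing, in which a short tag near the 3' end stands for 1 transcript. Depth was 3818722 reads at P14, against 2617913 and 2808678 reads at E18.5. Values are scaled tag counts, in which 1 read was worth 0.275 units at P14 and 0.385 and 0.377 units at E18.5, and they were compared within a gene only. Of 21121 listed genes 12964 were tested, with limma on log2(value + 1) across all 7 libraries and the lone P14 library assumed to vary like the replicated stages. Genes with an adjusted p (Benjamini-Hochberg) under 0.05 are called, and "rose" and "fell" are used for called genes only. Log2 changes are P14 minus E18.5 and are given with their standard error.

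In P14, 242 genes rose (1.87% of those tested) and 161 fell (1.24%), together 3.11%. The median log2 change of all tested genes was 0.08. Among the called genes 153 rose and 103 fell by at least 4-fold on the log2(value + 1) scale. The quasi-likelihood test of edgeR on the whole reads recovered from the values called 410 genes higher (3.16%) and 276 lower (2.13%), and these held 240 of the 242 and all 161 of the limma calls. The calls rest on the pooled spread of both replicated stages. Without any 1 of the E18.5 or P56 libraries limma called 0 genes in either direction (edgeR then called 325 to 937 higher and 239 to 677 lower), while 398 of the 403 called genes passed in every such edgeR fit. Each of those edgeR fits kept the same P14 library, so passing them does not show how P14 would vary. Without robust variance estimates limma called 3 genes higher and 3 lower (Cd74, Lyz1, Rabac1, Dlk1, E2f7 and H19). Without the filter on low values it called 816 higher and 235 lower of 21121 genes, which held 67 and 51 of the calls reported here. A pseudocount of 0.5 in place of 1 kept 188 of the 242 higher and 138 of the 161 lower calls. It ended the calls of Csf1r, Cyr61, Dbp, Ddah1, Fbn2, H2-DMb1 and Ifi27 among the 123 named genes and called list members. Igf2bp1, Lcn2, Lyve1, Napsa, Spry2, Timp3 and Txn1 of the same 123 lost theirs too. In that set DESeq2 gave Ccnd1, Csf1, Dbp and Spry2 an adjusted p above the threshold. DESeq2 called 195 of the 242 higher and 143 of the 161 lower genes, and gave no adjusted p for 25 and 5 of them, among them Csf1r, Lyve1, Actc1 and Krt15.

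**Figure D1:**
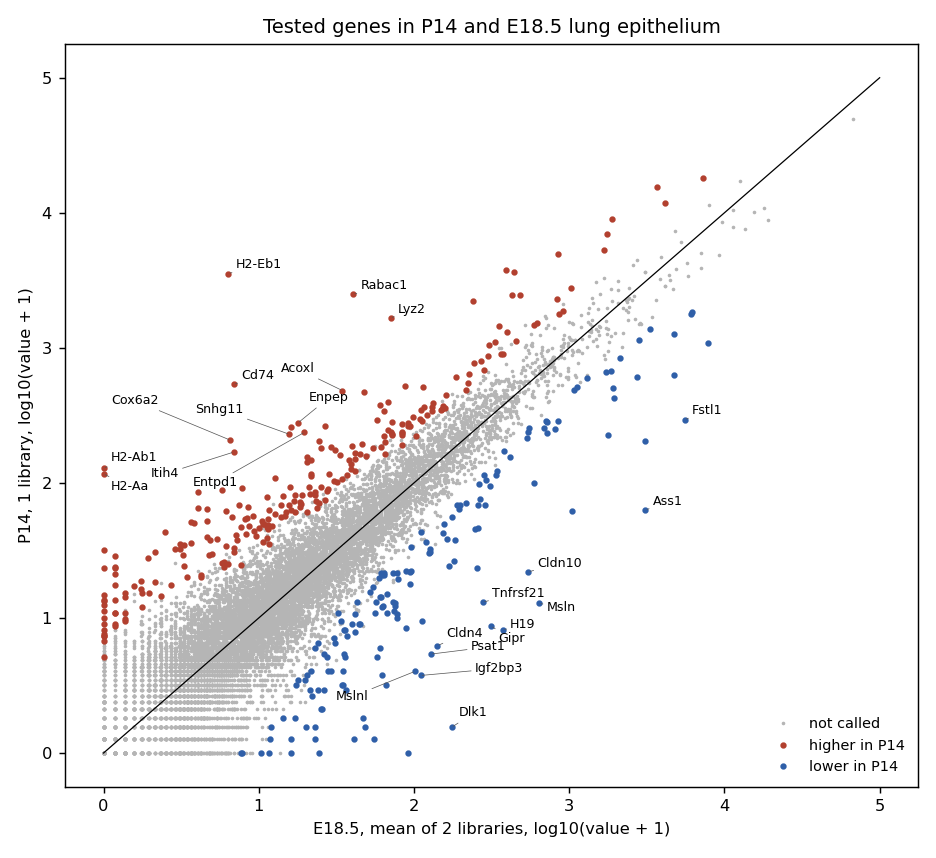
Each point is 1 of the tested genes, with its P14 value on the vertical axis and its E18.5 mean on the horizontal axis, both as log10(value + 1). The line marks equal values. The 12 genes with the largest rises and the 12 with the largest falls are named, and H2-Eb1 and Dlk1 stand farthest from the line among them.

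The most extreme rise was in MHC class II, the protein complex that presents antigen fragments to helper T cells. It is made chiefly by immune cells, and type 2 cells of the adult lung also carry it. Its genes are switched on by the coactivator Ciita through promoter elements called the X and Y boxes. The 150 bases before the start of H2-Aa (chr17:34287824-34287973, minus strand), H2-Eb1 (chr17:34305717-34305866, plus strand) and H2-DMb1 (chr17:34153041-34153190, plus strand) are shown because these genes rose together and are under this known common control. They are from RefSeq, build GRCm38.p6, and read 5′ to 3′. Capitals mark matches to CTNGNAAC, the left, and to TGATTGG, the right.
H2-Aa: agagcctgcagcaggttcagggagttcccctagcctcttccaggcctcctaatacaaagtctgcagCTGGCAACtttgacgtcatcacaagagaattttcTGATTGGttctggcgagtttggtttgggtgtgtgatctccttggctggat
H2-Eb1: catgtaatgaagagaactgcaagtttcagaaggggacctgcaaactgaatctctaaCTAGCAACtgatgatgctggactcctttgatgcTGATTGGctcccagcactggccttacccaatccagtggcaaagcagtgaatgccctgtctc
H2-DMb1: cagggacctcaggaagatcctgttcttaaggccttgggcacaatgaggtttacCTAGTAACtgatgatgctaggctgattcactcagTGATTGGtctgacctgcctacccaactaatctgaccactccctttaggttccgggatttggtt

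The X box letters began at position -84 in H2-Aa, -94 in H2-Eb1 and -97 in H2-DMb1, counted back from the start site. The Y box letters began at -50, -61 and -63 in the same order, which is 34, 33 and 34 bases further on. On both strands of the 250 bases before a gene, TGATTGG was found in 7.23% and CTNGNAAC in 10.9% of the 32851 RefSeq promoters, and both in 0.819%. The letters were chosen after these sequences were seen, and the motifs do not overlap each other. H2-Ab1, Cd74 and Ciita were not among the sequences matched.

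Of 9 tested MHC class II genes 6 rose and 0 fell, with a median log2 change of 4.62, against 3.11% of all genes called. H2-Eb1, a beta chain, had 3544 units in P14, against 9.24 and 1.51 in E18.5 (log2 change 9.45 ± 0.70 SE, adjusted p = 0.00162 by limma). H2-Ab1 had 128 units in P14, against 0 reads in both E18.5 libraries, at least 223-fold higher given a floor of 3 reads over the E18.5 libraries together (adjusted p = 0.000823). The alpha chain gene H2-Aa had 116 units in P14, against 0 reads in both E18.5 libraries, at least 202-fold higher on the same floor (adjusted p = 0.000813). These chains had 420 to 12881 reads each in P14 and at most 24 reads in an E18.5 library.

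Cd74, whose product accompanies class II molecules as their invariant chain, had 535 units in P14, against 6.93 and 4.90 in E18.5 (log2 change 6.29 ± 0.32, adjusted p = 0.000495). Ciita had 27.8 units in P14, against 0 and 0.377 in E18.5, a ratio of 146 with a 95% counting interval of 25.6 to 5820 because the E18.5 libraries held 1 read (adjusted p = 0.0108). The peptide-loading gene H2-DMb1 had 17.9 units in P14, against 0 and 1.51 in E18.5 (log2 change 3.58 ± 0.67, adjusted p = 0.0391). H2-DMa had 19.3 units in P14, against 0.385 and 4.52 in E18.5, and H2-DMb2 had 10.5 units in P14, against 0.770 and 0 in E18.5; neither passed the test. The remaining tested member, H2-Eb2, had 4.13 units in P14, against 4.62 and 5.65 in E18.5, so the P14 value lay below both. H2 genes share stretches of sequence, and tags could be split between them.

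Markers of immune cells were set beside these genes because such cells also make class II proteins. Ptprc, which encodes the CD45 used to exclude them, had 4 reads in P14, against 0 in both E18.5 libraries. Of the immune markers listed in the files, Itgam and Coro1a had 0 reads in all 3 libraries, and 4 were tested, of which 1 rose. That gene, Csf1r, the receptor of a macrophage growth factor, had 22.3 units in P14, against 0 and 0.377 in E18.5 (adjusted p = 0.043). Tyrobp had 11 reads in P14, against 0 and 1 in E18.5, and was not called. C1qa, not tested, had 10 reads in P14, against 0 in both E18.5 libraries. Cd68 (3 reads in P14, against 0 and 10 in E18.5) and Laptm5 (15, against 0 and 28) lay inside the E18.5 range. The whole marker list took 0.00338% of reads in P14, against 7.64e-05% and 0.00146% in E18.5, and the class II list took 0.419% of reads in P14, against 0.00218% and 0.00174% in E18.5. The part of immune cells in the class II rise was not tested.

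MHC class I genes, which present peptides from inside the cell, were not called. Of 15 tested genes of class I and its peptide loading 0 were called by limma, with a median log2 change of 0.91. B2m, the light chain, had 12.4 units in P14, against 4.62 and 3.77 in E18.5. The proteasome subunit Psmb8 had 268 units in P14, against 87.8 and 162 in E18.5. Both lay above the E18.5 libraries in P14. Interferon-stimulated genes gave 2 rises and 0 falls among 21 tested, with a median of 1.14. Ifit3, an antiviral protein, had 62.7 units in P14, against 5.39 and 1.88 in E18.5 (log2 change 3.89 ± 0.60, adjusted p = 0.0226), and Ifi27 had 51.2 units in P14, against 8.09 and 10.9 in E18.5 (adjusted p = 0.0411).

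Surfactant genes and other markers of type 2 cells were examined next. Of 24 tested markers 14 rose and 0 fell, with a median log2 change of 1.38, and the list took 5.31% of reads in P14, against 1.58% and 1.5% in E18.5. Sftpc, the surfactant protein made by type 2 cells alone, had 15516 units in P14, against 3953 and 3365 in E18.5 (log2 change 2.09 ± 0.20, adjusted p = 0.00452). Sftpb, the other hydrophobic surfactant protein, had 11751 units in P14, against 4067 and 4162 in E18.5 (1.51 ± 0.19, adjusted p = 0.011). For both genes the P14 value lay above both fetal values, as it did for 22 of the 24 markers.

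The surfactant collectins, which bind microbes, rose too. Sftpa1 had 3634 units in P14, against 471 and 406 in E18.5 (log2 change 3.05 ± 0.25, adjusted p = 0.00225). Sftpd had 1462 units in P14, against 354 and 353 in E18.5 (2.04 ± 0.22, adjusted p = 0.00661). The lysosome-related protein Lamp3, found on lamellar bodies, had 285 units in P14, against 116 and 109 in E18.5 (adjusted p = 0.0386). Abca3, which pumps phospholipid into lamellar bodies, had 526 units in P14, against 290 and 341 in E18.5, and Slc34a2, a phosphate carrier, had 1018 units in P14, against 493 and 549 in E18.5. Neither of these passed the test, although both were above the fetal range. Of the 14 calls, Cxcl15, Egfl6 and Napsa were lost when libraries were rescaled by TMM or by DESeq2 size factors.

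Proteins secreted against microbes were the next group. Of 13 tested members 7 rose and 0 fell, with a median log2 change of 2.13, and the list shares the lysozymes, Sftpa1 and Sftpd with the type 2 markers. Lyz2, a lysozyme that cuts bacterial cell walls, had 1659 units in P14, against 68.9 and 70.5 in E18.5 (log2 change 4.55 ± 0.28, adjusted p = 0.000813). Lyz1 had 3777 units in P14, against 397 and 384 in E18.5 (3.27 ± 0.21, adjusted p = 0.000823). The sequences of the 2 lysozyme genes are similar enough that tags could be shared. Wfdc2, a protease inhibitor of airway secretions, had 377 units in P14, against 52.7 and 65.9 in E18.5 (adjusted p = 0.00456), and Lcn2, which withholds iron from bacteria, had 55.0 units in P14, against 2.69 and 8.67 in E18.5 (adjusted p = 0.044, lost under TMM scaling). Chia1, a chitinase, had 39.3 units in P14, against 6.16 and 10.9 in E18.5, and was not called.

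Complement and acute phase genes gave 5 rises and 0 falls among 13 tested, with a median log2 change of 1.41. Hc, complement component C5, had 9021 units in P14, against 1758 and 2000 in E18.5 (2.27 ± 0.21, adjusted p = 0.00347). C3, the central complement protein, had 156 units in P14, against 42.7 and 52.7 in E18.5 (adjusted p = 0.0322), and C6, a part of the membrane attack complex, had 116 units in P14, against 23.1 and 31.3 in E18.5 (adjusted p = 0.0293). Itih4, a plasma protease inhibitor, had 168 units in P14, against 4.62 and 7.16 in E18.5 (4.64 ± 0.42, adjusted p = 0.00325). Haptoglobin (Hp) had 162 units in P14, against 36.2 and 51.2 in E18.5 (adjusted p = 0.0334).

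Of 12 chemokine and cytokine genes 3 rose and 0 fell, with a median of 0.80. Il33, an alarm cytokine released by damaged epithelium, had 62.2 units in P14, against 9.24 and 12.1 in E18.5 (adjusted p = 0.0202), and Csf1, a macrophage growth factor, had 19.8 units in P14, against 2.69 and 3.77 in E18.5 (adjusted p = 0.0394). The neutrophil attractants Cxcl1, Cxcl2 and Cxcl3 had 3.85, 6.05 and 6.33 units in P14. In E18.5 Cxcl1 had 3.08 and 3.39 units, Cxcl2 3.08 and 3.77, and Cxcl3 2.69 and 3.01. None of these 3 passed the test. Csf2, which encodes GM-CSF, had 66.3 units in P14, against 52.7 and 43.3 in E18.5, and was not called either.

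**Figure D2:**
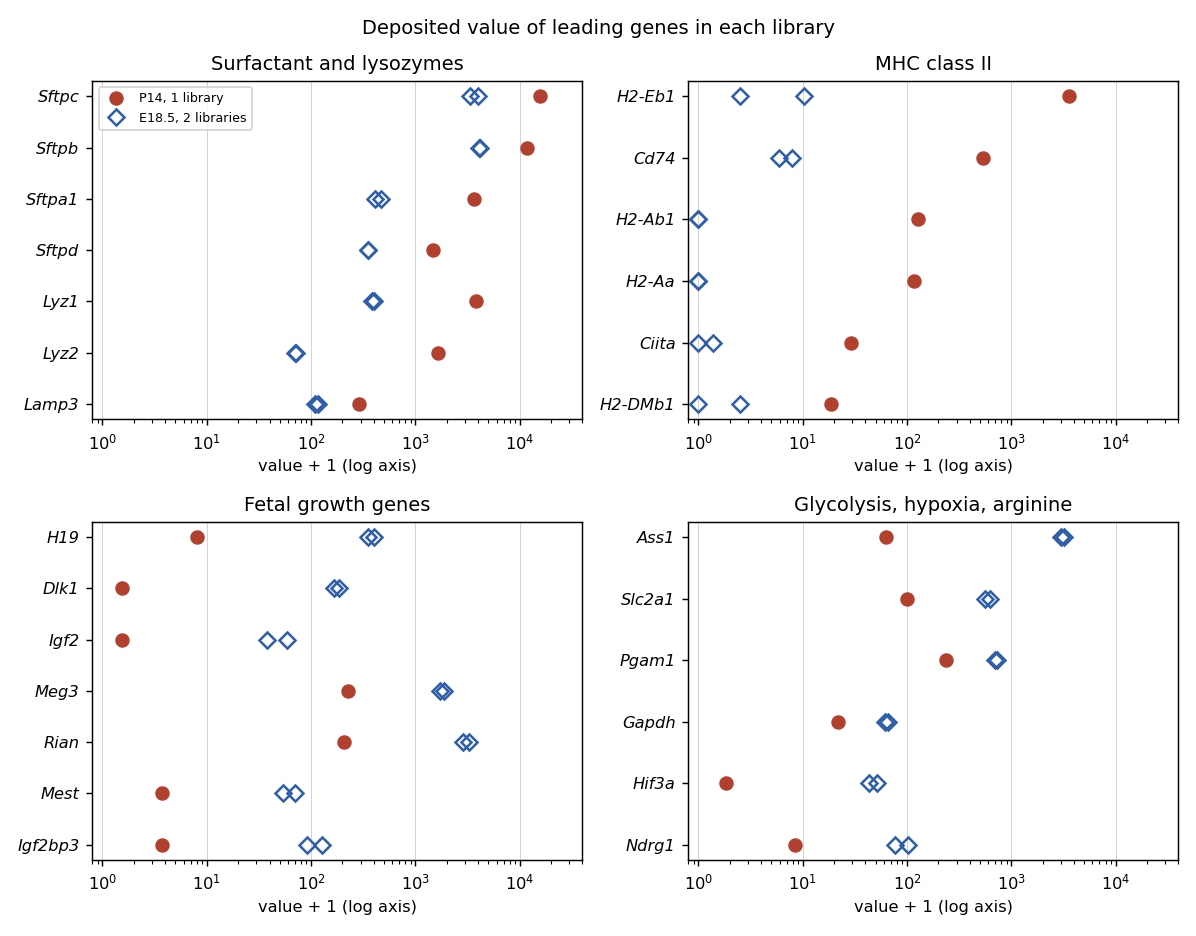
Each row is a gene and the horizontal axis its deposited value plus 1 on a log scale, with a filled circle for the P14 library and open diamonds for the 2 E18.5 libraries. The 4 panels show surfactant proteins and lysozymes, MHC class II, fetal growth genes, and sugar and arginine metabolism. In every row the P14 value lies outside the E18.5 values, to the right in the upper panels and to the left in the lower ones.

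Markers of type 1 cells gave calls in both directions. Of 26 tested markers 1 rose and 4 fell (19.2% called, against 3.11% of all tested genes). Their median log2 change was -0.18, and the list took 2.64% of reads in P14, against 2.79% and 3.07% in E18.5. Igfbp6, a binding protein of insulin-like growth factors, had 625 units in P14, against 4114 and 5289 in E18.5 (-2.90 ± 0.24, adjusted p = 0.00225). Gprc5a had 1379 units in P14, against 2924 and 3697 in E18.5 (adjusted p = 0.0344), Lmo7 had 214 in P14, against 526 and 543 in E18.5 (adjusted p = 0.0328), and the protease inhibitor Timp3 had 171 in P14, against 393 and 369 in E18.5 (adjusted p = 0.0494). Igfbp2, known in the mouse as a marker of mature type 1 cells, was the member that rose, with 34.7 units in P14, against 3.08 and 2.26 in E18.5 (3.29 ± 0.50, adjusted p = 0.0218).

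Other known type 1 genes were not called. Ager, a membrane receptor abundant in type 1 cells, had 851 units in P14, against 694 and 868 in E18.5, inside the fetal range. Rtkn2 had 161 units in P14, against 131 and 165 in E18.5, and Pdpn (podoplanin) had 55.0 in P14, against 57.4 and 44.8 in E18.5. The water channel Aqp5 had 3140 units in P14, against 1931 and 2181 in E18.5, and the caveolar protein Cav1 had 77.9 in P14, against 181 and 149 in E18.5; neither passed the test.

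The same markers were also compared with the adult. Against P56, 14 of the 26 were higher in P14 and 0 were lower, with a median log2 difference of 1.86 (P14 minus P56), where 0.694% of all genes were called higher and 0.123% lower. Rtkn2 had 161 units in P14, against 7.11 and 5.83 in P56 (4.45, adjusted p = 0.00363). Pdpn had 55.0 units in P14, against 1.99 and 1.30 in P56 (4.42, adjusted p = 0.00438), and Ager had 851 in P14, against 230 and 212 in P56 (1.94, adjusted p = 0.0172). The share of type 1 cells in each sort was not measured, and its part in this difference was not tested.

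Matrix genes of the growing septa were set against both neighbouring ages. Of 22 elastic fibre and collagen genes 0 rose and 3 fell against E18.5, with a median log2 change of -0.38. Fbn2, a fibrillin of fetal microfibrils, had 7.98 units in P14, against 46.6 and 39.9 in E18.5 (-2.30 ± 0.40, adjusted p = 0.0322). Ltbp4, which anchors latent TGF-beta to elastic fibres, had 13.2 units in P14, against 61.2 and 59.9 in E18.5 (adjusted p = 0.0322), and Col6a2 had 30 in P14, against 119 and 135 in E18.5 (adjusted p = 0.031). Elastin itself, Eln, had 53.9 units in P14, against 43.9 and 55.8 in E18.5, and the cross-linking enzyme Lox had 207 in P14, against 194 and 261 in E18.5, both inside the fetal range.

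Fbln5, which assembles elastic fibres, had 2695 units in P14, against 1949 and 2173 in E18.5, and was not called. Against P56 these 3 genes and Mfap4 were called higher in P14. Fbln5 had 2695 units in P14, against 108 and 75.8 in P56 (log2 difference 4.88, adjusted p = 0.00132), Lox had 207 in P14, against 3.41 and 6.15 in P56 (5.21, adjusted p = 0.00363), and Eln had 53.9 in P14, against 0.854 and 0.972 in P56 (4.84, adjusted p = 0.00363). Eln and Mfap4 also stand on the list of mesenchymal markers. Against P56, 3 of its 12 tested members were higher in P14 (Vim, Eln and Mfap4), with a median log2 difference of 1.81, and the list took 0.0305% of reads in P14, against 0.0143% and 0.00970% in P56. The part of mesenchymal cells in these differences was not tested. Against E18.5, limma called 0 of the 12, while edgeR called Col1a1 (adjusted p = 0.0236) and Fn1 (adjusted p = 0.0147) lower in P14. The list's share of reads was 0.0305% in P14, against 0.0348% and 0.0354% in E18.5, and its members Pdgfra and Pdgfrb had at most 1 read in any of the 3 libraries.

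Laminins, integrins and other basement membrane genes gave 0 rises and 5 falls among 30 tested, with a median of -0.31. Some laminin chains were among those that fell. Lamc1 had 67.4 units in P14, against 285 and 233 in E18.5 (-1.92 ± 0.25, adjusted p = 0.0137), and Lama5 had 834 in P14, against 1965 and 2258 in E18.5 (adjusted p = 0.0246). Itga6, a laminin receptor, had 41.5 units in P14, against 129 and 176 in E18.5 (adjusted p = 0.0243), and Tinagl1 had 48.7 in P14, against 145 and 164 in E18.5 (adjusted p = 0.0411). The collagen IV chains of the alveolar basement membrane were not called, with Col4a2 at 4501 units in P14, against 2481 and 2956 in E18.5, and Col4a3 at 258 in P14, against 135 and 152 in E18.5.

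**Figure D3:**
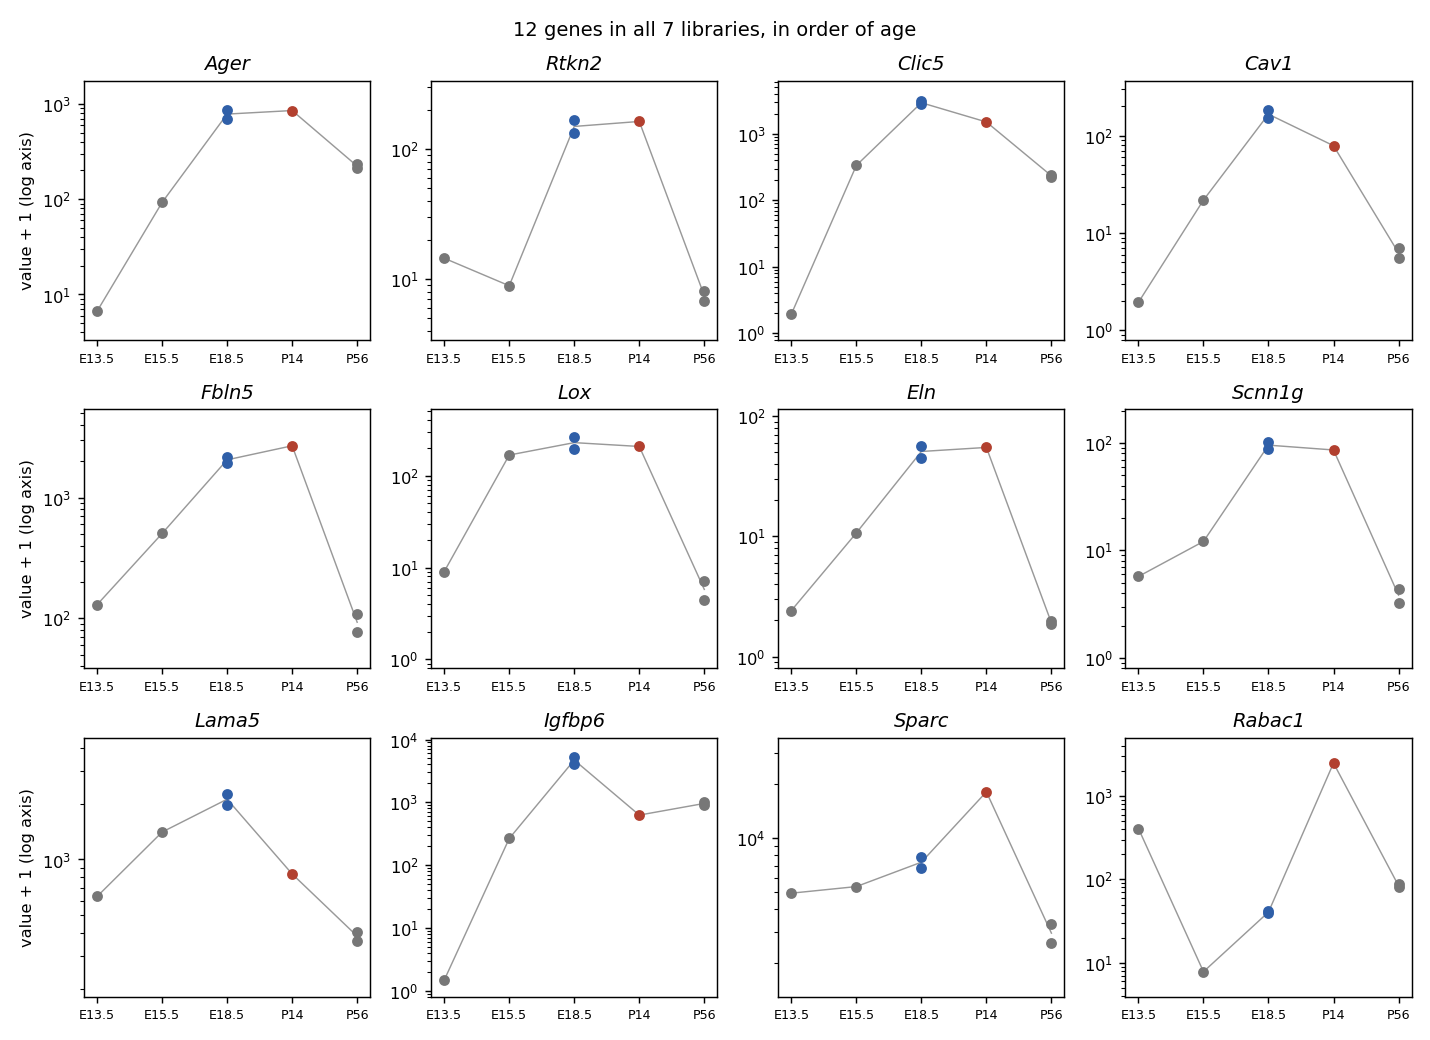
Each panel is a gene, with the 5 stages in order of age on the horizontal axis and the deposited value plus 1 on a log scale. Points are libraries (red for P14, blue for E18.5) and lines join stage means. Ager, Rtkn2, Fbln5, Lox, Eln and Scnn1g stay near the E18.5 values at P14 and are far lower at P56, while Lama5 and Igfbp6 are already lower at P14.

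Imprinted genes, in some tissues expressed from a single parental copy and many of them regulators of fetal growth, held some of the deepest falls. Of 25 tested members 0 rose, 9 fell and 16 were not called, with a median log2 change of -1.32, and the list took 0.117% of reads in P14, against 0.684% and 0.689% in E18.5. H19, a maternally expressed noncoding RNA, had 7.15 units in P14, against 397 and 350 in E18.5 (-5.52 ± 0.25, adjusted p = 0.000302). Its neighbour Igf2, the fetal growth factor, had 0.550 units in P14, against 37.0 and 57.6 in E18.5, a ratio of E18.5 over P14 of 86.2 with a counting interval of 23.6 to 716 (adjusted p = 0.00686). Cdkn1c, a cyclin-dependent kinase inhibitor on the same chromosome, had 67.4 units in P14, against 314 and 261 in E18.5 (adjusted p = 0.00823), and Mest had 2.75 in P14, against 69.3 and 53.1 in E18.5 (adjusted p = 0.00912). In the single E13.5 and E15.5 libraries H19 had 5921 and 9692 units and Igf2 had 292 and 393. Cdkn1c had 565 and 692 there and Mest 367 and 457, so the values of these genes were already lower by E18.5. Gnas, which encodes a G protein subunit, had 282 units in P14, against 716 and 720 in E18.5 (-1.34 ± 0.21, adjusted p = 0.0221). Its values in E13.5 and E15.5, 322 and 546 units, were below those of E18.5. Not all members were lower: Plagl1, a transcription factor, had 83.1 units in P14, against 53.9 and 53.1 in E18.5, and Impact had 47.9 in P14, against 32.7 and 34.7 in E18.5, neither of them called.

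Another 4 of the 9 lie in the Dlk1 domain of chromosome 12, where Dlk1 is paternally expressed and the noncoding RNAs are maternally expressed. Dlk1 (chr12:109452485-109463336, GRCm38.p6), a Notch-like membrane protein, had 0.550 units in P14, against 183 and 165 in E18.5, a ratio of E18.5 over P14 of 316 with a counting interval of 87.2 to 2613 (adjusted p = 0.000495). Meg3 (chr12:109540996-109571729) had 225 units in P14, against 1704 and 1871 in E18.5 (-2.98 ± 0.22, adjusted p = 0.0014). Rian (chr12:109603945-109661716) had 205 units in P14, against 2851 and 3295 in E18.5 (-3.90 ± 0.40, adjusted p = 0.00518). Mirg (chr12:109734981-109749458) had 1.10 units in P14, against 23.9 and 24.5 in E18.5 (adjusted p = 0.0197). In the single E13.5 and E15.5 libraries all 4 were below E18.5. Dlk1 had 27.2 and 64.6 units there, Meg3 265 and 497, Rian 698 and 1227, and Mirg 3.54 and 3.95.

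The fall in the domain was unequal in the values. The Dlk1 value at P14 rested on 2 reads, while Meg3 and Rian kept 818 and 744 reads. A tag of the miRNA gene Mir493, which lies between Meg3 and Rian (chr12:109580233-109580315) and was picked after its value was seen, had 1 read in P14, against 61 and 54 reads in E18.5 (adjusted p = 0.0143). Polyadenylated RNA was read, so this is not the mature miRNA. Against P56, Meg3 and Rian were called higher in P14: Meg3 had 225 units in P14, against 25.9 in each P56 library (log2 difference 3.07, adjusted p = 0.00363), and Rian had 205 units in P14, against 23.6 and 11 in P56 (3.58, adjusted p = 0.0116).

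RNA-binding proteins of the fetal programme gave 0 rises and 2 falls among 12 tested, with a median of -0.55. Igf2bp3, which binds Igf2 mRNA, had 2.75 units in P14, against 91.2 and 127 in E18.5 (-4.86 ± 0.38, adjusted p = 0.00185), and Igf2bp1 had 2.2 in P14, against 13.9 and 18.8 in E18.5 (adjusted p = 0.0412). Hmga2, a let-7 target, had 0.275 units in P14, against 3.85 and 2.26 in E18.5, and was not called. In the insulin-like growth factor list, 1 of 14 rose and 2 fell, and all 3 (Igfbp2, Igfbp6 and Igf2) are given above. The receptor Igf1r had 33.0 units in P14, against 78.5 and 117 in E18.5, and did not pass the test.

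Sugar metabolism and the hypoxia response held falls of single genes. Of 34 genes of glycolysis and the hypoxia response 1 rose and 6 fell, with a median of -0.56. Slc2a1, the glucose carrier GLUT1, had 98.8 units in P14, against 564 and 622 in E18.5 (-2.57 ± 0.22, adjusted p = 0.0025). The glycolytic enzyme Pgam1 had 234 units in P14, against 733 and 695 in E18.5 (-1.60 ± 0.20, adjusted p = 0.011), and Gapdh had 20.6 in P14, against 65.1 and 61.0 in E18.5 (adjusted p = 0.0322). Egln3, an oxygen-sensing prolyl hydroxylase that is itself induced by hypoxia, had 0.550 units in P14, against 17.7 and 20.3 in E18.5 (adjusted p = 0.0218), and the stress gene Ndrg1 had 7.43 in P14, against 75.1 and 102 in E18.5 (adjusted p = 0.0095).

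A pair of hypoxia-inducible factor genes moved in opposite directions. Hif3a, which can restrain the other family members, had 0.825 units in P14, against 42.4 and 50.1 in E18.5, a ratio of E18.5 over P14 of 56.1 with a counting interval of 19 to 274 (adjusted p = 0.00686). Epas1, which encodes HIF-2alpha, had 37.1 units in P14, against 4.62 and 4.14 in E18.5 (2.83 ± 0.41, adjusted p = 0.0187). Pgk1 had 27.5 units in P14, against 72.4 and 109 in E18.5, and Vegfa, the vessel growth factor, had 241 in P14, against 408 and 369 in E18.5; both lay below the fetal range without passing the test.

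Glycogen stored in fetal type 2 cells is used up around birth to make surfactant lipid. Of 18 glycogen genes 0 rose and 2 fell, with a median of -0.46. Ppp1r3b, which directs a phosphatase to glycogen, had 1.10 units in P14, against 26.9 and 22.2 in E18.5 (adjusted p = 0.0218). The glycogen phosphorylase Pygl had 11.6 units in P14, against 43.1 and 81.4 in E18.5, and was not called.

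Arginine metabolism held one of the deepest falls. Ass1, argininosuccinate synthase, had 61.9 units in P14, against 2978 and 3219 in E18.5 (-5.62 ± 0.30, adjusted p = 0.000495). Its partner enzyme Asl, which completes arginine synthesis, had 160 units in P14, against 120 and 154 in E18.5, and was not called. Ddah1, which breaks down inhibitors of nitric oxide synthase, had 1.93 units in P14, against 25.8 and 20.3 in E18.5 (adjusted p = 0.0361). These were the 2 falls among 9 tested members, with 0 rises and a median of 0.24. Psat1, a serine synthesis enzyme, had 4.40 units in P14, against 112 and 143 in E18.5 (-4.56 ± 0.38, adjusted p = 0.00225).

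Lipid synthesis rose for a few enzymes. Of 29 fatty acid and phospholipid synthesis genes 3 rose and 0 fell, with a median of 0.29. Me1, which supplies NADPH, had 607 units in P14, against 202 and 167 in E18.5 (1.72 ± 0.23, adjusted p = 0.014), Acsl5, which activates fatty acids, had 166 in P14, against 44.3 and 37.3 in E18.5 (adjusted p = 0.0156), and Elovl1, which lengthens them, had 93.0 in P14, against 16.6 and 23.7 in E18.5 (adjusted p = 0.0226). Fasn, fatty acid synthase, had 324 units in P14, against 343 and 484 in E18.5. The desaturases Scd1 and Scd2 lay on opposite sides of their fetal values, with Scd1 at 3296 units in P14, against 1577 and 1770 in E18.5, and Scd2 at 4834 in P14, against 8787 and 9545 in E18.5; neither was called and their tags could be shared.

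Of 24 cholesterol genes 0 rose and 2 fell, with a median of -0.49. Insig1, which holds the sterol sensor in the endoplasmic reticulum, had 104 units in P14, against 304 and 276 in E18.5 (-1.47 ± 0.23, adjusted p = 0.0221), and the sterol carrier Stard4 had 94.6 in P14, against 275 and 338 in E18.5 (adjusted p = 0.0187). Hmgcs1, also regulated by sterols, had 19 units in P14, against 37.3 and 29.4 in E18.5, and was not called. Fatty acid oxidation had 0 calls among 22 genes by limma (median 0.37). Lysosome and lamellar body genes had 1 rise, Lamp3, and 0 falls among 40 (2.5% called, near the 3.11% of all genes, median 0.38).

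The respiratory chain and ATP synthase had 0 calls by limma among 70 genes, with a median of 0.31, but the tissue isoforms of cytochrome c oxidase held 1 rise among 8. Cox6a2, the subunit isoform known from heart and skeletal muscle, had 206 units in P14, against 8.86 and 2.26 in E18.5 (5.19 ± 0.62, adjusted p = 0.00883). The general isoform Cox6a1 had 67.4 units in P14, against 40.4 and 20 in E18.5, and was not called. In P56, Cox6a2 had 906 and 1254 units.

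Fluid transport matters at birth because the lung must clear its liquid. Of 27 genes of sodium, chloride and water transport 0 rose and 1 fell (3.7% called, near the 3.11% of all genes), with a median of -0.09. Nedd4l, the ubiquitin ligase that removes the epithelial sodium channel from the membrane, had 96.8 units in P14, against 254 and 272 in E18.5 (-1.43 ± 0.24, adjusted p = 0.0282). The channel subunit Scnn1g had 85.0 units in P14, against 87.4 and 101 in E18.5, and Scnn1b had 17.1 in P14, against 14.2 and 15.1 in E18.5. The chloride channel Cftr had 122 units in P14, against 105 and 104 in E18.5, and the sodium pump subunit Atp1b1 had 8609 in P14, against 8063 and 11327 in E18.5. None of these channel and pump genes was called. Aqp1, a water channel, had 37.7 units in P14, against 88.9 and 140 in E18.5, and Fxyd4, a sodium pump regulator, had 13.5 in P14, against 63.9 and 39.2 in E18.5. The anion exchanger gene Slc26a4 had 16 reads in P14, against 0 in both E18.5 libraries. These 3 were not called by limma but were by edgeR, with adjusted p = 0.0343 for Aqp1, 0.0367 for Fxyd4 and 0.0164 for Slc26a4.

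Epithelial contacts and filaments held some large falls. Of 19 claudin and tight junction genes 0 rose and 2 fell, with a median of -0.05. Cldn4 had 5.23 units in P14, against 117 and 164 in E18.5 (-4.49 ± 0.38, adjusted p = 0.00225), and Cldn10 had 20.9 in P14, against 453 and 634 in E18.5 (-4.62 ± 0.43, adjusted p = 0.00395). Cldn18, the claudin of alveolar cells, had 17335 units in P14, against 11888 and 13486 in E18.5, and was not called. Of 7 keratins 1 rose and 3 fell, with a median of -1.63. Krt19 had 1087 units in P14, against 7505 and 8093 in E18.5 (-2.84 ± 0.20, adjusted p = 0.00116), Krt8 had 55.3 in P14, against 161 and 186 in E18.5 (adjusted p = 0.0273), and Krt15 had 0 reads in P14, against 7.70 and 10.9 units in E18.5, at least 11.3-fold lower in P14 with the floor of 3 reads (adjusted p = 0.037). Krt23 had 26.7 units in P14, against 0.385 and 1.51 in E18.5 (adjusted p = 0.0153).

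Among general epithelial identity genes 0 of 15 rose and 3 fell, namely Krt19, Cldn4 and Krt8, with a median of -0.50. Epcam, the protein used for sorting, had 57.5 units in P14, against 85.1 and 55.8 in E18.5, and Cdh1, E-cadherin, had 190 in P14, against 255 and 286 in E18.5; neither was called. Msln, a surface glycoprotein best known from mesothelium, had 11.8 units in P14, against 549 and 733 in E18.5 (-5.63 ± 0.49, adjusted p = 0.0025). Its neighbour Mslnl had 3.03 units in P14, against 88.9 and 112 in E18.5 (-4.65 ± 0.54, adjusted p = 0.00839). Apart from Krt19, given above, the other mesothelial markers were low. Wt1 and Lrrn4 had 0 reads in all 3 libraries and Upk3b 1 read in P14, while Upk1b had 14.0 units in P14, against 5.0 and 2.26 in E18.5. In the list of mesothelial markers 2 of 4 tested fell (Msln and Krt19), and in that of mucins and mesothelin 1 of 4 did, Msln.

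Signalling genes gave scattered calls. Fstl1, a secreted regulator of BMP signals that is needed for fetal lung growth in the mouse, had 293 units in P14, against 5567 and 5538 in E18.5 (-4.24 ± 0.27, adjusted p = 0.000823). It was the only call by limma among 30 TGF-beta and BMP genes (3.33% called, near the 3.11% of all genes, median 0.10). Of 21 growth factors that epithelium sends to mesenchyme and vessels 2 rose and 1 fell, with a median of -0.29. Gdnf, a neurotrophic factor, had 84.2 units in P14, against 3.46 and 2.64 in E18.5 (4.40 ± 0.37, adjusted p = 0.00225), Pdgfb, which recruits pericytes, had 55.6 in P14, against 7.32 and 9.04 in E18.5 (adjusted p = 0.0272), and Ctgf had 287 in P14, against 793 and 900 in E18.5 (-1.55 ± 0.23, adjusted p = 0.0196). Pdgfa, the signal to alveolar myofibroblasts, had 61.6 units in P14, against 40.8 and 43.3 in E18.5, and Shh had 564 in P14, against 672 and 793 in E18.5; neither was called.

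Of 24 FGF, EGF and Sprouty genes 3 rose and 0 fell, with a median of 0.26. Etv5, the transcription factor induced by FGF signals and needed by type 2 cells, had 237 units in P14, against 75.8 and 64.0 in E18.5 (1.75 ± 0.25, adjusted p = 0.0176). The EGF receptor ligand Btc had 68.2 units in P14, against 17.3 and 18.1 in E18.5 (adjusted p = 0.0293), and Spry2, a feedback inhibitor, had 64.1 in P14, against 21.9 and 23.4 in E18.5 (adjusted p = 0.0445, lost under TMM scaling). Of 19 Yap and Taz genes 1 rose and 2 fell, with a median of -0.11: Ankrd1 had 12.7 units in P14, against 0 and 0.377 in E18.5 (adjusted p = 0.0221), and Cyr61 had 252 in P14, against 583 and 520 in E18.5 (adjusted p = 0.0445), beside the fall of Ctgf. Wnt (27 tested, median 0.15) and Notch genes (18 tested, median -0.12) had 0 calls by limma.

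Of 32 lung transcription factors 3 rose and 2 fell, with a median of 0.16. Beside Etv5, Irx3 had 1517 units in P14, against 572 and 667 in E18.5 (1.29 ± 0.21, adjusted p = 0.0261), and Ehf had 17.6 in P14, against 0.770 and 1.51 in E18.5 (3.14 ± 0.50, adjusted p = 0.0246). Foxp2 had 20.4 units in P14, against 55.4 and 64.8 in E18.5 (-1.51 ± 0.29, adjusted p = 0.041), and Cebpb had 285 in P14, against 760 and 654 in E18.5 (-1.30 ± 0.23, adjusted p = 0.0334). Nkx2-1, the lung lineage factor, had 1406 units in P14, against 1459 and 1969 in E18.5, and Cebpa, a regulator of type 2 maturation, had 68.0 in P14, against 36.6 and 43.7 in E18.5; neither was called.

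Airway cells were followed by their own markers. Of 10 club cell markers 4 rose and 1 fell, with a median of 1.04. Scgb1a1, the defining secretory protein, had 91.6 units in P14, against 15 and 14.7 in E18.5 (2.55 ± 0.34, adjusted p = 0.0137). The carbonyl reductase Cbr2 had 2459 units in P14, against 440 and 527 in E18.5 (2.35 ± 0.25, adjusted p = 0.00592), and the stress gene Nupr1 had 261 in P14, against 27.3 and 24.1 in E18.5 (adjusted p = 0.00456). Hp and Cldn10, given above, were the other rise and the fall. Cyp2f2, a club cell cytochrome, had 68.5 units in P14, against 57.8 and 61.0 in E18.5, and was not called.

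Of 16 ciliated cell markers 1 rose and 1 fell, with a median of -1.19. Called or not, 2 of the 16 had a log2 change above 0 and 14 below. Foxj1, the master regulator of motile cilia, had 11 units in P14, against 55.1 and 67.4 in E18.5 (-2.37 ± 0.32, adjusted p = 0.0144). Tppp3, a tubulin-binding protein, had 2314 units in P14, against 793 and 867 in E18.5 (1.48 ± 0.21, adjusted p = 0.0189). The dynein gene Dnah9 had 2.48 units in P14, against 9.24 and 24.1 in E18.5, and Tekt1 had 8.80 in P14, against 27.7 and 21.1 in E18.5; both lay below the fetal range and neither was called. Neuroendocrine markers had 0 calls among 5 by limma (median 0.54), and of 3 basal cell markers 1 fell, Krt15 (median -2.16).

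Of 25 genes of xenobiotic metabolism 4 rose and 0 fell, with a median of 0.68. Cbr2 was one of them. Aox3, an aldehyde oxidase, had 36.6 units in P14, against 4.62 and 3.01 in E18.5 (adjusted p = 0.0223), Ephx1, an epoxide hydrolase, had 28.3 in P14, against 1.16 and 3.39 in E18.5 (adjusted p = 0.036), and the carboxylesterase Ces1d had 233 in P14, against 73.9 and 91.2 in E18.5 (adjusted p = 0.0346). Among 26 antioxidant genes 1 rose and 0 fell (3.85% called, near the 3.11% of all genes), with a median of 0.39. That gene, Txn1 (thioredoxin), had 82.3 units in P14, against 26.2 and 14.3 in E18.5 (adjusted p = 0.0481, lost under TMM scaling). Catalase (Cat) had 48.7 units in P14, against 20.8 and 23.7 in E18.5, and was not called. Retinoid genes had 0 calls among 12 by limma (median 0.97).

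Cell division genes were low at both ages. Replication genes (29 tested, median 0.12) and mitosis genes (32 tested, median 0.00) had 0 calls by limma, and the replication list took 0.0143% of reads in P14, against 0.0120% and 0.0140% in E18.5. Mki67, the proliferation marker, had 2.2 units in P14, against 0.770 and 1.51 in E18.5. Of 18 cyclin D and inhibitor genes 1 rose and 1 fell, with a median of -0.25. Ccnd1 had 23.7 units in P14, against 7.32 and 6.03 in E18.5 (adjusted p = 0.043, lost under TMM scaling and in DESeq2), and the fall was Cdkn1c. DNA methylation and Polycomb genes had 0 calls among 21 by limma (median -0.11).

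Stress responses that can start within minutes were examined as well. Of 26 immediate early genes 1 rose and 3 fell, with a median of -0.65. Zfp36, which degrades cytokine mRNA, had 1264 units in P14, against 4186 and 5343 in E18.5 (-1.90 ± 0.22, adjusted p = 0.0085), Maff had 45.7 in P14, against 270 and 247 in E18.5 (-2.48 ± 0.24, adjusted p = 0.00396), and the third was Cyr61. Klf2, a Kruppel-like factor, had 38.8 units in P14, against 3.85 and 3.39 in E18.5 (3.11 ± 0.44, adjusted p = 0.0182). Fos, often induced by tissue handling, had 2874 units in P14, against 4232 and 4068 in E18.5, and was not called.

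Of 16 heat shock genes 0 rose and 3 fell, with a median of -0.64. Hspa1a had 1778 units in P14, against 4580 and 7581 in E18.5 (-1.73 ± 0.30, adjusted p = 0.0318), Hspa1b had 1832 in P14, against 4814 and 7473 in E18.5 (-1.71 ± 0.28, adjusted p = 0.0258), and their co-chaperone Dnajb1 had 19.8 in P14, against 66.6 and 55.8 in E18.5 (adjusted p = 0.0395). Hspa1a and Hspa1b are near-identical, and their values ran so close in every library that their tags could be shared. These responses also move when tissue is digested, and the part of handling was not tested.

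Of 16 glucocorticoid genes 0 rose and 1 fell (6.25% called, against 3.11% of all genes), with a median of -0.04. Fkbp5, a classic target of the receptor, had 10.2 units in P14, against 63.5 and 83.3 in E18.5 (-2.72 ± 0.33, adjusted p = 0.00947). The receptor gene Nr3c1 had 72.6 units in P14, against 63.9 and 68.9 in E18.5, and was not called. Of 19 clock genes 1 rose and 0 fell (5.26% called, against 3.11% of all genes), with a median of -0.03. That gene, Dbp, an output of the clock, had 19 units in P14, against 3.08 and 3.39 in E18.5 (adjusted p = 0.0427). The labels give no hour of collection.

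Genes of protein synthesis had 0 calls by limma, among 77 ribosomal proteins (median 0.36), 26 genes of ribosome biogenesis and elongation (median -0.17) and 31 of the endoplasmic reticulum (median 0.35). Ribosomal proteins took 8.41% of reads in P14, against 11.2% and 9.23% in E18.5. Members differed in direction: Rpl8 had 10870 units in P14, against 16497 and 19512 in E18.5, whereas Rps16 had 42.9 in P14, against 29.6 and 9.42 in E18.5. Many ribosomal proteins have near-identical processed copies, so their tags could be split. In all, limma called 0 genes in 15 lists with 401 tested members, of which 56 were higher and 17 lower in P14 at an unadjusted p under 0.05. At that threshold 1426 of all 12964 tested genes were higher and 964 lower. In these lists edgeR called 8 higher (4 respiratory, 2 Wnt, 1 replication and 1 endoplasmic reticulum gene) and 3 lower (2 mesenchymal and 1 Notch gene).

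Other markers of cells that the sort should remove were mostly low, with an exception. Pecam1, which encodes CD31, had 0 reads in P14, against 1 and 0 in E18.5. Of 7 tested endothelial markers 1 rose, with a median of 1.13: Lyve1, of lymphatic vessels, had 9.90 units in P14, against 0.385 and 0 in E18.5 (adjusted p = 0.0391). Esam, an endothelial adhesion molecule, had 214 units in P14, against 92.8 and 101 in E18.5, and was called by edgeR (adjusted p = 0.0371) but not by limma (adjusted p = 0.0833). It held most of the endothelial list's reads, and that list took 0.0225% of reads in P14, against 0.0103% and 0.0108% in E18.5. Its part in the other results was not tested. Mcam, which encodes CD146, had 0.825 units in P14, against 1.54 and 1.51 in E18.5. Of 4 erythroid genes 0 were called, with a median of 1.85, and the haemoglobin gene Hbb-bs had 12.7 units in P14, against 0 and 23 in E18.5. The 4 tested immune markers had a median of 1.19 and the 12 mesenchymal markers one of -0.65.

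**Figure D4:**
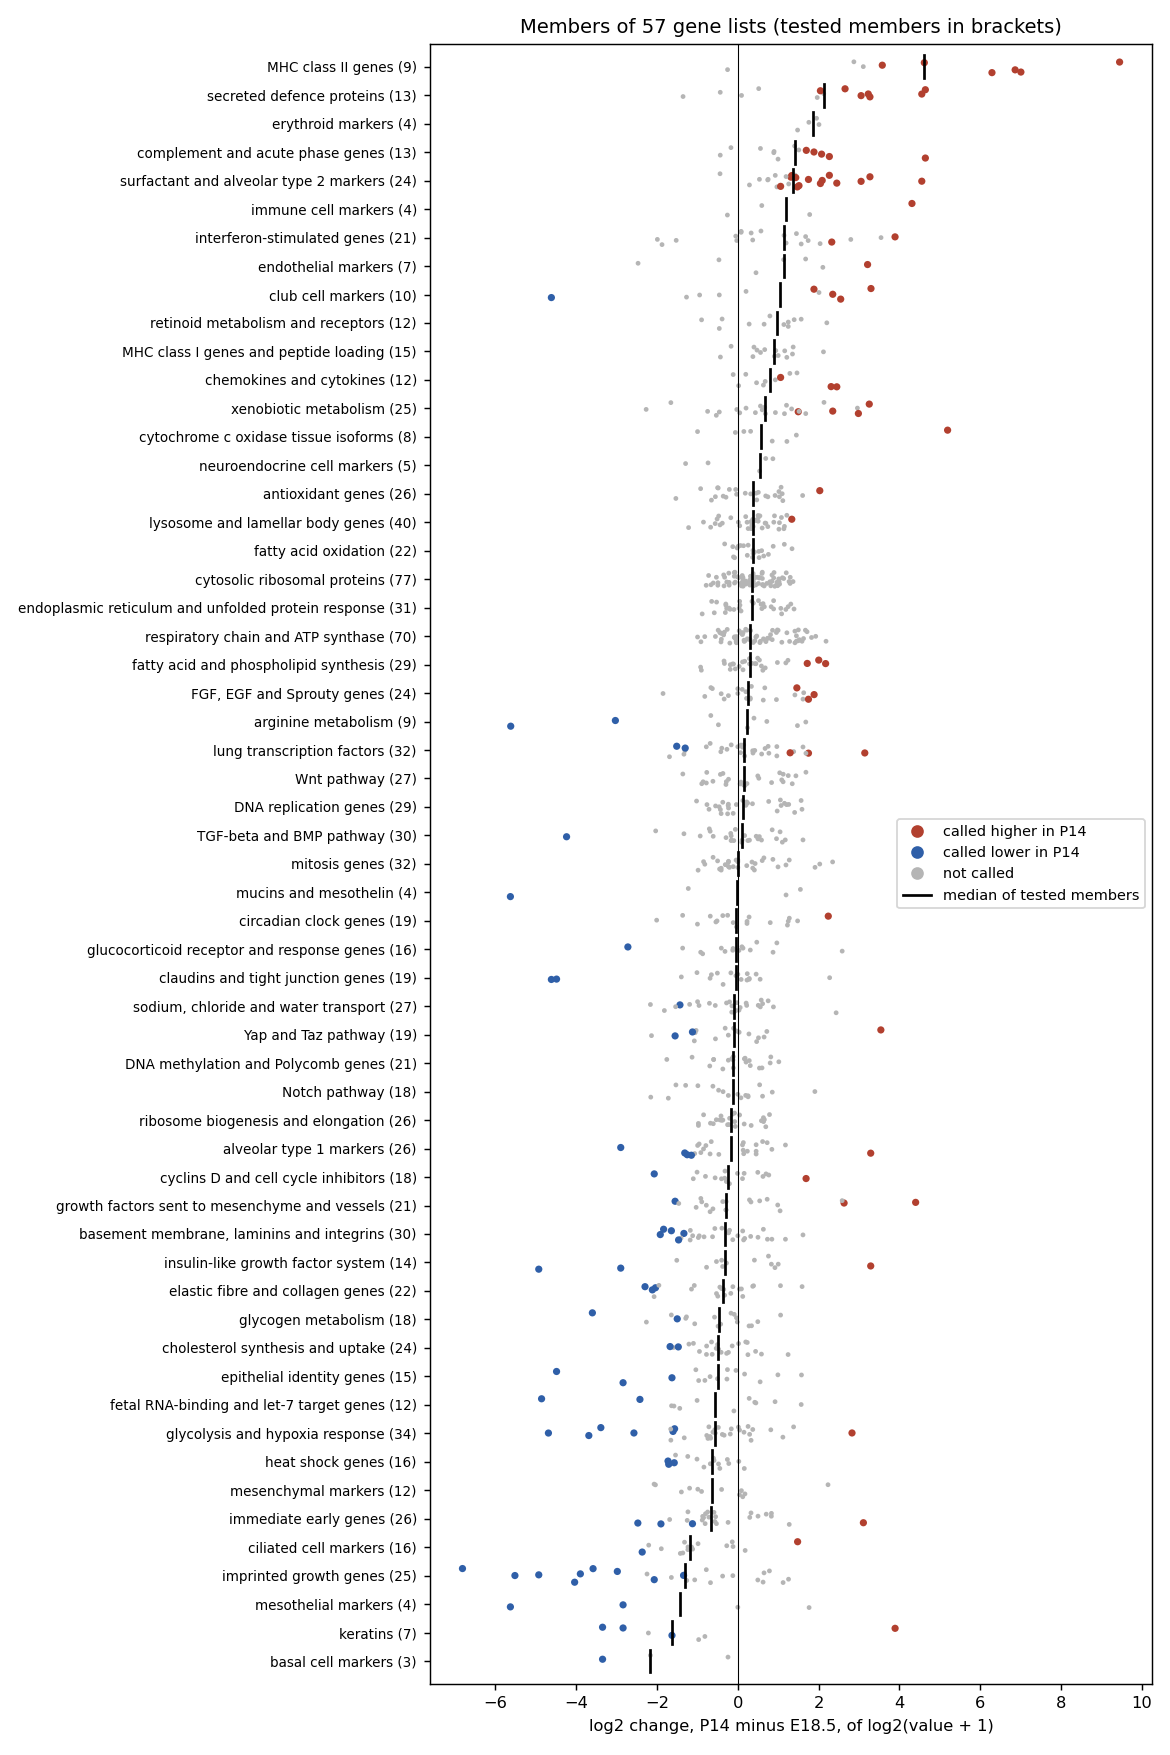
Each row is 1 of 57 gene lists, ordered by the median log2 change of its tested members (black bar), and each point is a member. The horizontal axis is the log2 change, P14 minus E18.5. Red and blue points were called higher and lower in P14. MHC class II and the secreted defence proteins hold red points far to the right, and the imprinted growth genes blue points far to the left, while the large lists of ribosomal and respiratory genes hold no call.

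Genes called in P14 above both E18.5 and P56 numbered 8 (0.0617% of those tested), and 3 genes were below both (0.0231%). Both comparisons used the same single P14 library, so they are not independent of each other.

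Rabac1, which helps to move small GTPases between membranes, was the extreme case. It had 2484 units in P14, against 38.1 and 41.1 in E18.5 (5.94 ± 0.24, adjusted p = 0.000302) and 79.7 and 86.5 in P56 (4.89, adjusted p = 0.00131). The single libraries of E13.5 and E15.5 also differed widely for this gene, with 407 and 6.82 units. Sparc, a collagen-binding matrix protein, had 18109 units in P14, against 6842 and 7811 in E18.5 (1.31 ± 0.22, adjusted p = 0.0284) and 2593 and 3289 in P56 (2.63, adjusted p = 0.00363). Mfge8, which bridges dying cells to phagocytes, had 1124 units in P14, against 447 and 457 in E18.5 (adjusted p = 0.0243) and 313 and 281 in P56 (adjusted p = 0.0106).

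The receptor phosphatase Ptpre had 181 units in P14, against 28.5 and 19.6 in E18.5 (adjusted p = 0.0114) and 18.8 and 14.6 in P56 (adjusted p = 0.0108). Agpat4, an enzyme of phospholipid synthesis, had 146 units in P14, against 27.7 and 13.9 in E18.5 (adjusted p = 0.0202) and 25 and 22.3 in P56 (adjusted p = 0.0478). The other 3 were Igfbp2, the cadherin Cdh13 with 88.0 units in P14, against 6.16 and 3.39 in E18.5 and 8.82 and 6.80 in P56, and the muscle actin gene Actc1, named after their values were seen, as were the genes below both. The 3 genes below both were Foxj1, E2f7 and Sprr1a. E2f7, a repressor of the cell cycle, had 1 read in P14, against 147 and 137 in E18.5 (adjusted p = 0.000813), and Sprr1a, a protein of the cornified envelope, had 9.90 units in P14, against 74.3 and 57.6 in E18.5 (adjusted p = 0.00875) and 83.9 and 92.0 in P56 (adjusted p = 0.00829).

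The remaining genes with the largest changes belong to none of the groups above. Acoxl, related to a peroxisomal acyl-CoA oxidase, had 482 units in P14, against 37.0 and 30.1 in E18.5 (3.81 ± 0.31, adjusted p = 0.00225). Enpep, aminopeptidase A, had 277 units in P14, against 10 and 23.7 in E18.5 (4.07 ± 0.46, adjusted p = 0.0074). Entpd1, which encodes CD39 and breaks down extracellular ATP, had 236 units in P14, against 23.5 and 13.9 in E18.5 (3.63 ± 0.38, adjusted p = 0.00573), and the noncoding RNA Snhg11 had 228 in P14, against 6.16 and 23.4 in E18.5 (4.12 ± 0.64, adjusted p = 0.0232). Gipr, the receptor of a gut hormone, had 7.70 units in P14, against 329 and 296 in E18.5 (-5.17 ± 0.32, adjusted p = 0.000813), and Tnfrsf21, a death receptor, had 12.1 in P14, against 275 and 280 in E18.5 (-4.41 ± 0.72, adjusted p = 0.0263).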

How the data were processed

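The labels' protocols describe 3' SAGE libraries of amplified polyA RNA, sequenced on an Ion Proton. The submitters' processing notes name Bowtie2 2.2.5, R 3.4.0 and mm10. How tags were counted, with which annotation, and how libraries were scaled, no label or header states. Each deposited file holds 1 scaled signal for every gene. In each library they are whole multiples of the worth of 1 read (100% of values within 0.01 reads), so each column is a tag count over a constant.

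From these values 12964 of 21121 genes passed edgeR's filterByExpr by stage (minimum count 10). The test reported is limma-trend with robust variances on log2(value + 1), with a coefficient for each stage, 2 residual degrees of freedom and Benjamini-Hochberg adjustment. The pseudocount of 1 understates changes of low genes. The quasi-likelihood test of edgeR and the test of DESeq2, both on the recovered reads, were alternatives. The scripts were tested on simulated counts with no stage differences apart from changes placed in P14. That simulation does not show how the test behaves on the spread of these data. Ratios against 0 reads used a floor of 3 reads, and those with 1 to 3 reads a 95% exact counting interval; both cover counting error only. A read was worth at most 0.385 units in the compared libraries.

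The 57 lists (1086 genes tested of 1295 members) and the tests were chosen with earlier results of these data known. Named genes are, first, called genes outside the E18.5 range that average 100 or more in the higher stage, without predicted or clone symbols: the 12 largest changes per direction, and up to 6 per direction against both E18.5 and P56 (5 above and 0 below qualified). With no such minimum, up to 4 called members per list by p and the genes of the sorting markers were added. Uncalled list members given as values were picked for their role. Positions and promoters are from RefSeq GRCm38.p6, the assembly also called mm10, and 11711 tested symbols matched. Some list members are counted but not reported here by name. Tags of near-identical genes could be shared. Other scalings, filters, pseudocounts, a block on replicate number, and fits without each library were tried. The software was limma 3.58.1, edgeR 4.0.16 and DESeq2 1.42.0 in R 4.3.3.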

Additional observations from a re-analysis of the deposited data

How the results depend on the processing

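The counts of calls depended on how the spread was estimated. Main counts were 242 higher, 161 lower, 8 above both neighbouring ages and 3 below both. Without robust variances limma called 3 higher, 3 lower, 0 above both and 0 below both. With only the P14 and E18.5 libraries it called 0 higher and 0 lower, with 822 and 696 at an unadjusted p under 0.05, and no value exists for P56. Leaving out each E18.5 or P56 replicate gave 0 to 0 in all 4 counts by limma, where 800 to 1478 genes were higher and 654 to 889 lower at an unadjusted p under 0.05. The same fits by edgeR, added after the data were seen, gave 937, 668, 325 and 388 higher without E18.5 replicate 1, E18.5 replicate 2, P56 replicate 1 and P56 replicate 2, in that order, with 677, 494, 239 and 274 lower, 65, 56, 8 and 11 above both, and 92, 74, 3 and 10 below both. With all libraries edgeR called 410 higher, 276 lower, 20 above both and 14 below both, and with only the P14 and E18.5 libraries 304 higher and 253 lower. DESeq2 called 19 below both. Without the filter on low values limma called 816 higher, 603 above both and 21 below both of 21121 genes. Requiring a mean of at least 10 gave 14 below both, and a pseudocount of 5 gave 19 above both. E18.5 and P56 share replicate numbers, and P14 shares only the number 1. Same-numbered libraries of E18.5 and P56 did not deviate together (correlation -0.04 over 6807 genes). With 1 library at P14, this cannot show whether the numbers pair the samples. A replicate block left 7 higher, 9 lower, 0 above both and 0 below both by limma, and 287 higher, 193 lower, 15 above both and 7 below both by edgeR. No alternative reversed any of the 123 named and listed genes. These were chosen by their main calls and every alternative used the same P14 library, so a reversal was unlikely from the start. TMM scaling and DESeq2 size factors moved the median change of all genes to 0.01 and lost 7 and 6 of these calls, a pseudocount of 0.5 lost 14, no filter 80, no robust variances 118, and the replicate block lost 110 with limma and 4 with edgeR. Of all 242 higher calls TMM scaling kept 194 and DESeq2 size factors kept 202, while both kept all 161 lower calls. Depth limits genes under about 3 reads.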

Other observations

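Some called genes outside the lists, picked after their values were seen, are given as single values, with no claim about a group. Anpep, aminopeptidase N, had 525 units in P14, against 70.8 and 103 in E18.5 (log2 change 2.60, adjusted p = 0.00686 by limma). Mme, neprilysin, had 50.1 units in P14, against 2.69 and 2.64 in E18.5 (3.80, adjusted p = 0.00456), and Nt5e, which encodes CD73 and makes adenosine, had 22.8 units in P14, against 0 and 0.377 in E18.5 (adjusted p = 0.0221). Dpp4, another surface peptidase, had 155 units in P14, against 115 and 82.1 in E18.5, and was not called. Among genes of lipid handling, the fatty acid carrier Cd36 had 229 units in P14, against 76.6 and 66.3 in E18.5 (adjusted p = 0.0269), the droplet protein Plin2 had 683 in P14, against 279 and 283 in E18.5 (adjusted p = 0.0273), the triglyceride lipase Pnpla2 had 1317 in P14, against 332 and 461 in E18.5 (adjusted p = 0.0218), and the secreted phospholipase Pla2g1b had 2236 in P14, against 299 and 179 in E18.5 (adjusted p = 0.00686).

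Among genes that fell, Atp6v0a4, a proton pump subunit known from kidney, had 61.1 units in P14, against 1128 and 943 in E18.5 (-4.06, adjusted p = 0.00116). Sprr2k had 0 reads in P14, against 112 and 69.3 units in E18.5, at least 110-fold lower in P14 with the floor of 3 reads (adjusted p = 0.0018). The phospholipid receptor Lpar1 had 2.2 units in P14, against 56.2 and 73.1 in E18.5 (adjusted p = 0.00225). A pair of heart muscle genes appeared in the P14 library alone of these 3: Actc1 had 113 reads in P14, against 0 in both E18.5 libraries (adjusted p = 0.00942), and Myl3 had 50 reads in P14, against 0 in both (adjusted p = 0.0273). Other heart muscle genes showed no such difference in reads: Tnnt2 had 1 read in P14, against 1 and 0 in E18.5, Myl7 had 4 in P14, against 7 and 5 in E18.5, and Myh6 had 101 in P14, against 62 and 87 in E18.5. The origin of these reads was not tested.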
